A study of Mus musculus with 33 samples.

Results

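The 4 libraries described here came from CD8 T cells sorted from inflamed mouse skin 2 days after the hapten dinitrofluorobenzene (DNFB). They form a pair of sorted subsets that the count table names by the codes 1_05 and 1_04, with 2 libraries each, out of 33 libraries in the series. The sets were taken by the table's column headers, and all 12236 genes with enough reads were compared. The series measured RNA by CEL-seq2, a method that counts the 3′ ends of polyadenylated transcripts, to ask how topical TA, a glucocorticosteroid, acts on the CD8 T cells of contact allergy. Its first experiment used Nur77GFP mice and is not used here. Its second used C57BL/6 mice sensitized to DNFB, with 16 libraries in 8 sets, and supplied every library of the fits.

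At day 2 the untreated skin CD8 T cells of that experiment were divided by the surface proteins CD69 and CD103 into 4 subsets with 2 libraries each. The endings of the codes place set 1_03 as CD69+CD103+ cells, because the ending 03 is the one that recurs at the later days, when CD69+CD103+ cells alone were sorted. Sets 1_05, 1_04 and 1_02 are, in an order that was not known, the CD69+CD103-, CD69-CD103+ and CD69-CD103- cells, and no code was matched to a subset from expression values. None of the 4 day 2 sets received TA or acetone. The remaining 8 libraries of the second experiment were CD69+CD103+ cells of day 11 and day 42 with acetone or TA. They entered the estimate of the spread, the low-count filter and the scaling of libraries, and were not among the sets compared. The number of mice behind a library was not known, and nothing states that the 2 libraries of a set came from separate animals. The p-values therefore cover the spread between these libraries alone, which may be technical.

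CD69 and CD103 are used together to recognise resident memory T cells. CD69 binds the receptor S1PR1 and keeps it off the cell surface, which holds a T cell in the tissue, while CD103, the integrin alpha E chain encoded by Itgae, pairs with the beta 7 chain and binds E-cadherin on keratinocytes. T cells that can still leave a tissue and travel through blood and lymph nodes keep the transcription factor KLF2 and its target S1PR1. Recently activated CD8 T cells make granzymes, chemokines and cytokines instead.

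Set 1_05 held 13629838 and 5986465 counts in its libraries, and set 1_04 held 9616168 and 4426747. Between 11976 and 12806 genes were detected in set 1_05, and between 11950 and 12716 in set 1_04. Mitochondrial transcripts took 18.8% and 12.8% of the counts in set 1_05, and 15.9% and 16.8% in set 1_04. The correlation of log2 CPM, the count of a gene scaled to a common library size, taken across genes, was 0.919 between the libraries of set 1_05 and 0.902 between those of set 1_04, and from 0.882 to 0.923 between libraries of sets 1_05 and 1_04. Between sets 1_05 and 1_03 it was 0.896 to 0.924. Both sets expressed the genes of CD8 T cells: Cd8a had 886 and 642 CPM in set 1_05, against 685 and 802 CPM in set 1_04, and Cd3e, a chain of the T cell receptor complex, had 806 and 739 CPM in set 1_05, against 664 and 687 CPM in set 1_04. None of the 16 genes of that list passed the test, and their log2 fold changes lay between -0.22 and 0.37. Cd4 had 1.30 and 0 CPM in set 1_05, against 2.25 and 0.213 CPM in set 1_04.

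Few genes separated the sets. Of 12236 genes tested with edgeR's quasi-likelihood test and Benjamini-Hochberg adjustment at 0.05, 10 were called, 0.0817% of all genes. In set 1_05 relative to set 1_04, 8 were higher (0.0654%) and 2 were lower (0.0163%), each by more than 2-fold. At an unadjusted p under 0.05 there were 476 genes, or 3.89%. Without the first library of set 1_05, 17 genes were called. The median log2 fold change of all genes was 0.02, and 51.2% of them were above 0. Higher in set 1_05 were Itgae, the matrix gene Dcn, the lysozyme gene Lyz1, the steroid-metabolising enzyme Akr1c18, the mitochondrial protein gene Bnip3, the antiviral genes Ifitm1 and Ifitm2, and Fgl2. Lower in set 1_05 were the chemokine gene Ccl5 and the fatty acid carrier Fabp4.

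**Figure D1:**
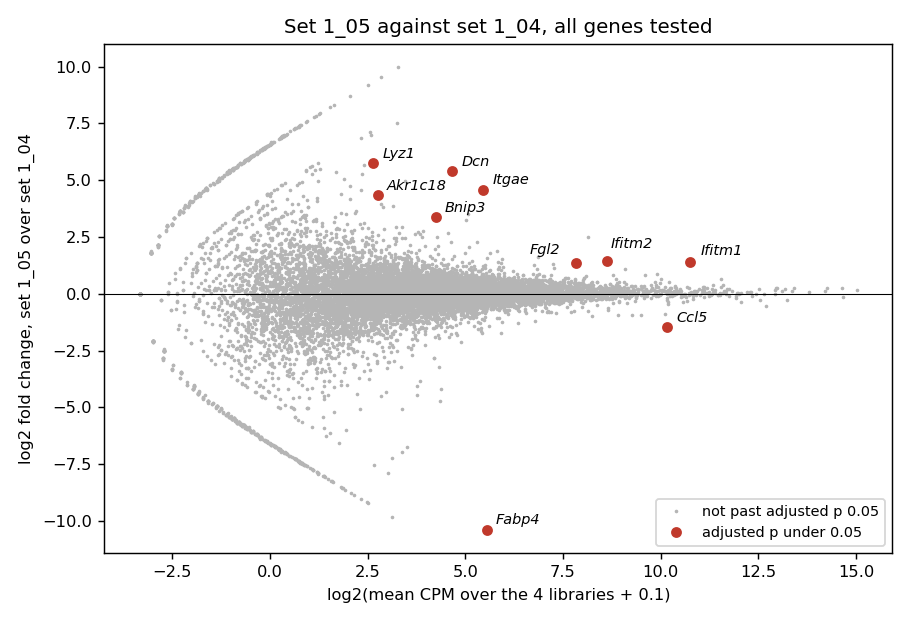
Log2 fold change of set 1_05 over set 1_04 (y axis) against the log2 mean CPM of the 4 libraries (x axis, 0.1 added) for every gene tested; each point is 1 gene, red where the adjusted p was under 0.05. The 10 called genes are named, 8 above the zero line and 2 below it, and the curved edges of the cloud are genes without a count in one of the sets.

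The smallest p was that of Itgae (chromosome 11, 73090583 to 73147446, plus strand, GRCm38; ENSMUSG00000005947.11), which encodes CD103 and describes the sort. Itgae had 92.5 and 77.1 CPM in set 1_05, against 5.32 and 1.07 CPM in set 1_04. Both libraries of set 1_05 were above both of set 1_04, with a log2 fold change of 4.58 ± 0.44 (SE) and an adjusted p of 7.98e-05 in edgeR's quasi-likelihood test. The other day 2 sets had 7.35 and 3.60 CPM in set 1_02 and 70.7 and 88.7 CPM in set 1_03, so that the libraries of set 1_05 lay among those of the CD69+CD103+ cells and the libraries of set 1_04 beside those of set 1_02. Cd69 had 524 and 429.7 CPM in set 1_05, against 371 and 329.8 CPM in set 1_04, a log2 fold change of 0.44 ± 0.21 with an unadjusted p of 0.0488 and an adjusted p of 1, which did not pass. Set 1_02, with 415 and 388 CPM, lay between them, and set 1_03, with 528 and 370.4 CPM, overlapped both. These transcripts are no finding about which subset a code stands for. Itgae overlaps Haspin on the opposite strand, and how strands were counted was not known.

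Ifitm1 and Ifitm2, neighbouring genes of the interferon-induced transmembrane family whose proteins sit in membranes and hinder the entry of viruses, were both higher in set 1_05. Ifitm1 (chromosome 7, 140967221 to 140969825, plus strand) had 2934 and 2033 CPM in set 1_05, against 946 and 962 CPM in set 1_04. The log2 fold change was 1.38 ± 0.19 (SE), with an adjusted p of 0.00208 by edgeR. Ifitm2 (chromosome 7, 140954837 to 140955987, minus strand) had 623 and 526 CPM in set 1_05, against 207 and 217 CPM in set 1_04, a log2 fold change of 1.44 ± 0.18 with an adjusted p of 0.00108. The groups did not overlap for either gene. Ifitm3, the third family member measured at this locus, had 175 and 165 CPM in set 1_05, against 197 and 147 CPM in set 1_04, and its log2 fold change was -0.02 ± 0.25 (adjusted p = 1). In set 1_02 and set 1_03 the levels were 1204 and 1033 CPM and 2354 and 1904 CPM for Ifitm1, and 328 and 379 CPM and 755 and 576 CPM for Ifitm2. Both genes were thus high in sets 1_05 and 1_03, the same sets in which Itgae was high, with no overlap with sets 1_04 and 1_02. The last 500 bases of these transcripts share unbroken runs of 40 bases between Ifitm1 and Ifitm2, 64 between Ifitm1 and Ifitm3 and 69 between Ifitm2 and Ifitm3, so some reads may have been split between copies.

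Because Ifitm1 and Ifitm2 moved together, the 250 bases before each annotated start are shown, taken from RefSeq (GRCm38.p6) and written 5′ to 3′ on the gene's own strand, with motif matches in capitals. The Ifitm1 window lies at chr7:140967826-140968075 on the plus strand and the Ifitm2 window at chr7:140955962-140956211 on the minus strand. These RefSeq starts lie inside the genes as GENCODE places them, since GENCODE begins Ifitm1 at 140967221 and Ifitm2 at 140955987.
Ifitm1: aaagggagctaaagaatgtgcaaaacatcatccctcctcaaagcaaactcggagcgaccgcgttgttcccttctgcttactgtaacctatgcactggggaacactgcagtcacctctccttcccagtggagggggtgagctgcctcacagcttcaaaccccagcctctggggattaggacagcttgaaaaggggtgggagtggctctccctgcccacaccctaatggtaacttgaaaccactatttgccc
Ifitm2: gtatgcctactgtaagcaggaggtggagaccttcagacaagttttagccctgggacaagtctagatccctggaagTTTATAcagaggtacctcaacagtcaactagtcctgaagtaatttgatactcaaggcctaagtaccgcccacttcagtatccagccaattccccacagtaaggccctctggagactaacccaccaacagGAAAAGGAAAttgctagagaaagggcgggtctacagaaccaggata
Both strands were searched for GAAA, any 2 bases and GAAA again, the core of the interferon-stimulated response element, for TTCNNNGAA, the gamma-activated site, and for TATAAA. The Ifitm2 window held 1 match to this core, starting 46 bases before the start of transcription, and 1 match to TATAAA on the reverse strand, starting 175 bases before it. The Ifitm1 window held none of these letters. Among all 32817 promoter windows of that length, 2.97% held the core, 7.01% held TTCNNNGAA and 12.4% held TATAAA. A match describes letters only.

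No gene of a list of the type I interferon response, which does not hold the Ifitm genes, passed the test. Of its 40 measured genes 23 were above 0 and 17 below, and their median log2 fold change was 0.10. Ifit1 had 112 and 102 CPM in set 1_05, against 91.3 and 87.8 CPM in set 1_04. Isg20, an interferon-stimulated exonuclease gene, stood highest among them by p, with 103 and 68.6 CPM in set 1_05, against 43.9 and 32.4 CPM in set 1_04 (log2 fold change 1.17 ± 0.39, adjusted p = 0.843 by edgeR).

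Fgl2, which encodes a secreted fibrinogen-like protein known as an immune regulator of T cells, and Ccl5, a chemokine that effector and memory CD8 T cells store and release, moved in opposite directions. Fgl2 (chromosome 5, 21372642 to 21378374, plus strand) had 365 and 297 CPM in set 1_05, against 145 and 110.4 CPM in set 1_04, with no overlap and a log2 fold change of 1.37 ± 0.22 (adjusted p = 0.0145). Sets 1_02 and 1_03 had 395 and 222 CPM in set 1_02 and 326 and 344 CPM in set 1_03, so that set 1_04 was the low one of the 4. Ccl5 (chromosome 11, 83525778 to 83530518, minus strand) had 683 and 538 CPM in set 1_05, against 1719 and 1649 CPM in set 1_04. It was lower in both libraries of set 1_05, with a log2 fold change of -1.46 ± 0.19 and an adjusted p of 0.00152 by edgeR. Across the 4 day 2 sets Ccl5 ran highest in set 1_04 and lowest in set 1_03, with 949.7 and 767 CPM in set 1_02 and 279.8 and 219 CPM in set 1_03, and no library of one set overlapped another set. Both sets with high Itgae had less Ccl5 than both sets with low Itgae.

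Akr1c18 and Bnip3 were low in set 1_04 alone among the day 2 sets. Akr1c18, an aldo-keto reductase that inactivates progesterone (chromosome 13, 4132615 to 4150654, minus strand), had 10.8 and 14.7 CPM in set 1_05, against 0.717 and 0.426 CPM in set 1_04, with 19.0 and 43.4 CPM in set 1_02 and 11.2 and 13.1 CPM in set 1_03. Its log2 fold change was 4.35 ± 0.67 (SE) with an adjusted p of 0.00722. Bnip3, a mitochondrial protein gene known for its induction by low oxygen and its part in the removal of mitochondria (chromosome 7, 138890836 to 138909519, minus strand), had 27.3 and 40.9 CPM in set 1_05, against 1.64 and 5.33 CPM in set 1_04. Its log2 fold change was 3.36 ± 0.59 (adjusted p = 0.0283), and the other sets had 27.2 and 11.7 CPM in set 1_02 and 29.8 and 16.3 CPM in set 1_03. Against the mean of sets 1_02 and 1_03, set 1_04 was lower in both genes, with log2 fold changes of -4.97 ± 0.65 for Akr1c18 (adjusted p = 0.000430) and -2.67 ± 0.54 for Bnip3 (adjusted p = 0.0240, and 0.275 without the first library of set 1_04), while set 1_05 differed by -0.62 ± 0.46 (adjusted p = 0.716) and 0.69 ± 0.44 (adjusted p = 0.648), neither passing. The difference between sets 1_05 and 1_04 did not pass for Akr1c18 without the first or without the second library of set 1_04 (adjusted p up to 0.132), nor for Bnip3 without the second library of set 1_05 or the first of set 1_04 (adjusted p up to 0.306). Fgl2 likewise did not pass without the first library of set 1_05 or the second of set 1_04 (adjusted p up to 0.376).

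**Figure D2:**
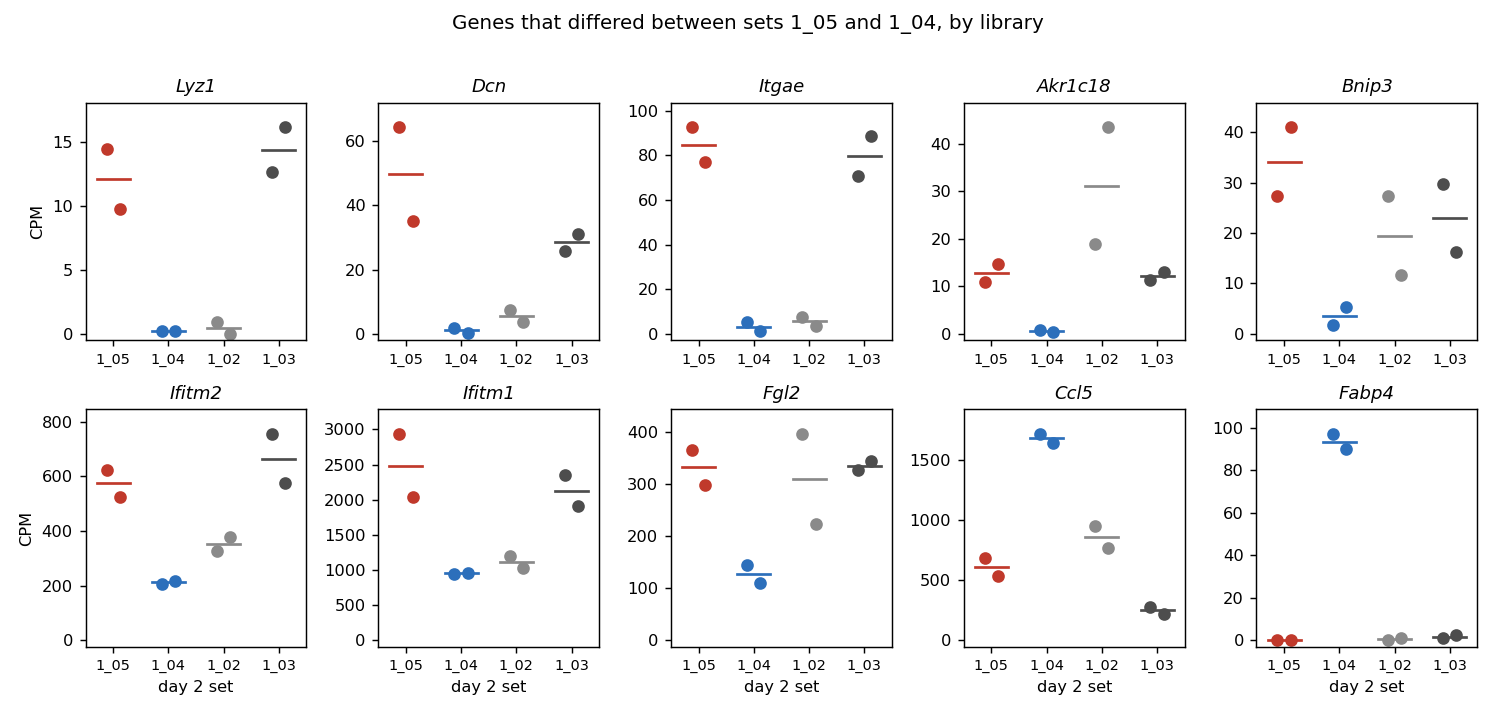
CPM (y axis, linear, from 0) of the 10 called genes in every day 2 library, by set (x axis); points are libraries and bars the mean of 2. In every panel the libraries of sets 1_05 and 1_04 do not overlap; for Itgae, Dcn, Lyz1, Ifitm1 and Ifitm2 the CD69+CD103+ set 1_03 lies with set 1_05 above sets 1_04 and 1_02, and for Fabp4 all sets but 1_04 are near 0.

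The remaining 3 called genes, Dcn, Lyz1 and Fabp4, are best known from cells other than T cells. Dcn, which encodes the collagen-binding proteoglycan decorin of fibroblasts (chromosome 10, 97479609 to 97518143, plus strand), had 64.3 and 35.1 CPM in set 1_05, against 1.84 and 0.213 CPM in set 1_04. Its log2 fold change was 5.38 ± 0.62 (SE) with an adjusted p of 0.000563 by edgeR, and sets 1_02 and 1_03 had 7.35 and 3.77 CPM in set 1_02 and 25.9 and 31.2 CPM in set 1_03. Lyz1 (chromosome 10, 117287797 to 117292868, minus strand), a lysozyme, had 14.4 and 9.78 CPM in set 1_05, against 0.205 and 0.213 CPM in set 1_04. This amounts to 242 reads in set 1_05 against 3 in set 1_04, a ratio of 61.8 with a 95% counting interval of 20.9 to 302, and the adjusted p was 0.0189. The related Lyz2, the lysozyme of macrophages, was near 0 throughout, with 0.324 and 0.458 CPM in set 1_05, against 0 and 0 CPM in set 1_04, and shares a run of 104 bases with Lyz1. Lyz1 did not pass without the first or without the second library of set 1_04 (adjusted p up to 0.25).

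Fabp4 (chromosome 3, 10204088 to 10208576, minus strand), the fatty acid carrier of fat cells and small blood vessels that mouse skin resident memory T cells also use, had 0.0811 and 0 CPM in set 1_05, against 97.1 and 90.0 CPM in set 1_04, with 0 and 1.03 CPM in set 1_02 and 0.986 and 2.38 CPM in set 1_03. Set 1_05 held 1 read in all and set 1_04 held 1370, so that the level in set 1_04 was 1789 times that in set 1_05, with a 95% counting interval of 320.5 to 70710, and the adjusted p was 0.000758. Fabp4 was at or near 0 in every day 2 library outside set 1_04. Fabp5, its partner in those cells, had 137 and 104 CPM in set 1_05, against 85.1 and 139 CPM in set 1_04 (adjusted p = 1). Of 23 measured genes of lipid uptake and handling, Fabp4 alone passed, 12 were above 0 and 11 below, and the median log2 fold change was 0.02. Cd36, a fatty acid receptor also found on small vessels, had 1.38 and 0 CPM in set 1_05, against 20.4 and 9.17 CPM in set 1_04 (adjusted p = 1), and the cholesterol exporter Abca1 had 7.46 and 5.96 CPM in set 1_05, against 13.8 and 14.1 CPM in set 1_04 (adjusted p = 1).

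Transcripts of blood vessel cells were present in the same libraries as Fabp4. In the 24-gene list of fibroblast and endothelial markers, the smooth muscle gene Acta2 had 0.162 and 2.90 CPM in set 1_05, against 48.1 and 29.6 CPM in set 1_04. Tagln, also of smooth muscle, had 0 and 0 CPM in set 1_05, against 11.5 and 8.31 CPM in set 1_04, and Cdh5, the cadherin of endothelial junctions, had 0 and 0 CPM in set 1_05, against 3.38 and 10.2 CPM in set 1_04. None of these 3 passed the test by edgeR (adjusted p of 0.844, 0.848 and 1). Flt1, a receptor for vascular growth factors, had 0 and 0 CPM in set 1_05, against 9.11 and 2.34 CPM in set 1_04. Tm4sf1, which endothelial cells express, had 3 reads in set 1_05 and 288 in set 1_04, 125 times the level (counting interval 42.5 to 611), with an adjusted p of 0.252. Sparcl1, a matrix protein gene of vessel walls, had 1 read in set 1_05 and 254 in set 1_04, 332 times the level (59.0 to 13150), with an adjusted p of 0.463. Some of these transcripts also occurred in sets 1_02 and 1_03, where Fabp4 was at or near 0. Tm4sf1 had 0 and 9.95 CPM in set 1_02 and 1.26 and 9.35 CPM in set 1_03. Sparcl1 had 0 and 0 CPM in set 1_02 and 5.56 and 2.38 CPM in set 1_03. Acta2 had 0.306 and 0.171 CPM in set 1_02 and 0 and 0.0882 CPM in set 1_03. Myh11, a smooth muscle myosin chosen after its values were seen, had 0.0811 and 0 CPM in set 1_05, against 14.6 and 10.2 CPM in set 1_04.

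Matrix genes of fibroblasts went both ways. Col1a1 and Col3a1, which encode fibrillar collagens, were near 0 in set 1_04. Col1a1 had 8.60 and 3.67 CPM in set 1_05, against 0.205 and 0 CPM in set 1_04, and Col3a1 had 10.1 and 4.12 CPM in set 1_05, against 0.307 and 0 CPM in set 1_04. Neither gene passed by edgeR (adjusted p of 1 and 0.516). Sparc, a collagen-binding matrix protein gene, had 8.03 and 3.36 CPM in set 1_05, against 16.6 and 24.1 CPM in set 1_04 (log2 fold change -1.80 ± 0.72, adjusted p = 1). Eln, which encodes elastin, had 0.324 and 0.153 CPM in set 1_05, against 2.25 and 16.6 CPM in set 1_04 (log2 fold change -5.06 ± 1.22, adjusted p = 0.350). Pdgfra, a fibroblast receptor, was at 0 in all 4 libraries, Lum had 0.406 and 1.68 CPM in set 1_05, against 0 and 0.213 CPM in set 1_04, and Pecam1, an endothelial adhesion molecule that leukocytes also carry, had 36.9 and 15.9 CPM in set 1_05, against 20.0 and 47.8 CPM in set 1_04. Of the 21 list members tested, Dcn alone passed, 10 were above 0 and 10 below, and the summed level was 6490 and 5094 CPM in set 1_05 against 5356 and 5329 CPM in set 1_04, most of it from Vim and Thy1, which T cells express. In set 1_05, 8 of the 24 genes were at 0 in both libraries, and in set 1_04 4 were. Their part in the results for Dcn and Fabp4 was not tested, and in bulk samples fewer cells of a type and less RNA per cell cannot be told apart.

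Summed markers of keratinocytes and antigen-presenting cells had larger values in set 1_05, and no single one of those genes passed in the main test. The 33 keratinocyte genes summed to 9210 and 8864 CPM in set 1_05 against 5934 and 6654 CPM in set 1_04. Of 32 tested 22 were above 0 and 9 below, with a median log2 fold change of 0.34. The wound keratins Krt6b and Krt17 made up a small part of these sums: Krt6b had 518 and 442 CPM in set 1_05, against 57.8 and 111 CPM in set 1_04, and Krt17 had 176 and 174 CPM in set 1_05, against 63.0 and 49.5 CPM in set 1_04 (adjusted p of 0.516 and 0.294). The basal keratin Krt14 had 1044 and 1506 CPM in set 1_05, against 1263 and 1348 CPM in set 1_04, with overlapping libraries, and Krt5 had 669 and 842 CPM in set 1_05, against 783 and 777 CPM in set 1_04, also overlapping. The 29 phagocyte and dendritic genes summed to 1414 and 1185 CPM in set 1_05 against 937 and 860.4 CPM in set 1_04, with 21 of 27 tested above 0, 5 below and a median of 0.69. Cd74, the invariant chain of MHC class II, had 88.7 and 86.5 CPM in set 1_05, against 40.8 and 26.6 CPM in set 1_04 (log2 fold change 1.37 ± 0.31, adjusted p = 0.215). Cd207, which encodes langerin of Langerhans cells, had 4.87 and 10.7 CPM in set 1_05, against 0.307 and 0.213 CPM in set 1_04 (adjusted p = 0.249). H2-Ab1, a class II chain, had 228 and 191 CPM in set 1_05, against 73.8 and 119.8 CPM in set 1_04, while Lyz2 was at 0 in both libraries of set 1_04. Foxp3 of regulatory T cells had 15.7 and 19.1 CPM in set 1_05, against 0.614 and 5.97 CPM in set 1_04 (adjusted p = 1), and the natural killer list summed to 655 and 579.6 CPM in set 1_05 against 400.5 and 413 CPM in set 1_04. Cd7, a member of that list which T cells share, had 245 and 185 CPM in set 1_05, against 86.7 and 87.2 CPM in set 1_04 (adjusted p = 0.249). Some keratinocyte and antigen-presenting markers passed in alternatives, with larger values in set 1_05. Without the low-count filter they included Krt6b, Krt17, H2-Ab1 and another class II chain, H2-Eb1 (adjusted p of 6.9e-11, 0.0055, 0.0392 and 0.0252 by edgeR). With DESeq2 they included Krt17, Cd74 and Cd207 (adjusted p of 0.0119, 0.00411 and 0.00845). The part of all these other-cell transcripts in the results for Itgae, Ifitm1, Ifitm2 and Lyz1 was not tested. With all marker genes of other cells left out of the counts, Dcn among them, 9 genes were called. Leaving out those genes takes no RNA of other cells out of the remaining genes, so this count does not show that part.

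**Figure D3:**
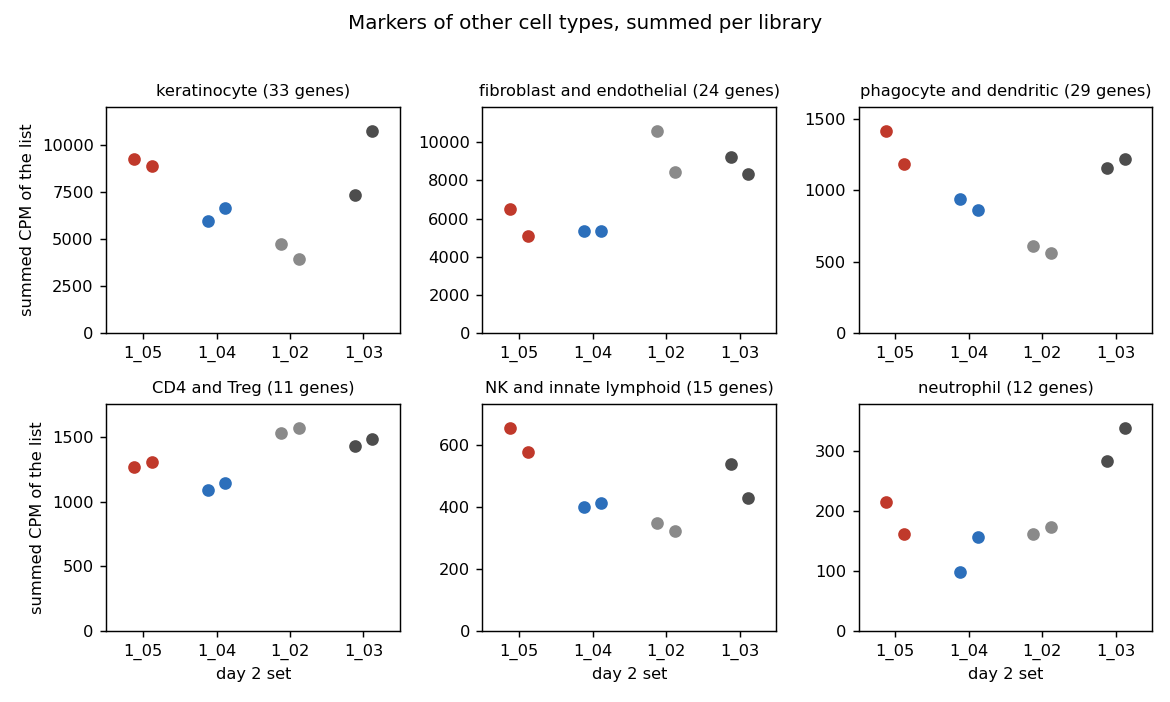
Summed CPM (y axis, linear, from 0) of marker genes of 6 other cell types in each day 2 library, by set (x axis); points are libraries. Keratinocyte, phagocyte and natural killer sums were larger in both libraries of set 1_05 than in both of set 1_04, and the fibroblast and endothelial sums of the sets overlapped.

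In the lists of tissue residency and of exit from tissue, Itgae and Fabp4 alone passed between set 1_05 and set 1_04. The part of other cells in the Fabp4 result was not tested. Of 28 measured residency genes Itgae was higher and Fabp4 lower in set 1_05, 19 were above 0 and 9 below, and the median log2 fold change was 0.09. Cxcr6, a skin-homing chemokine receptor of resident cells, had 412 and 531 CPM in set 1_05, against 415 and 461 CPM in set 1_04 (adjusted p = 1). Itgb7, the beta chain that pairs with CD103, had 147 and 153 CPM in set 1_05, against 103 and 98.5 CPM in set 1_04, with no overlap and an adjusted p of 1. Of 26 recirculation genes none passed, 12 were above 0 and 14 below, and their median was -0.20. S1pr1 had 493 and 398 CPM in set 1_05, against 389.7 and 377 CPM in set 1_04 (log2 fold change 0.22 ± 0.37), and Klf2 had 252 and 265 CPM in set 1_05, against 275 and 308 CPM in set 1_04 (-0.17 ± 0.27), each with an adjusted p of 1. Eomes and Klrg1 had larger values in set 1_04 without passing in the main test, Klrg1 at low counts. Eomes, a transcription factor of memory and natural killer cells, had 3.49 and 0 CPM in set 1_05, against 19.5 and 33.9 CPM in set 1_04 (adjusted p = 0.633). It passed without the low-count filter (adjusted p = 0.0316 by edgeR) and with DESeq2 (adjusted p = 0.049). Klrg1, a receptor of terminal effector cells, had 0 and 0 CPM in set 1_05, against 6.45 and 5.33 CPM in set 1_04 (adjusted p = 0.843).

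Each set was also compared with the mean of the other day 2 sets, which sets 2 libraries against 4. Against the mean of sets 1_02 and 1_03, set 1_05 had 109 called genes (0.891%), 71 higher (0.58%) and 38 lower (0.311%), with 1258 (10.3%) at an unadjusted p under 0.05. Set 1_04 had 97 called genes (0.793%) in the same comparison, 53 higher (0.433%) and 44 lower (0.36%), with 1135 (9.28%) at an unadjusted p under 0.05. These comparisons share the libraries of sets 1_02 and 1_03, so only the values of each are given side by side. Of the 10 genes that differed between sets 1_05 and 1_04, 3 were called in set 1_05 and 8 in set 1_04 against that mean, 2 of them in both, and Lyz1 in neither. These 10 genes were chosen for their difference between sets 1_05 and 1_04, whose libraries enter these comparisons again. Their calls against that mean are therefore no separate support. The count for set 1_05 was 59 and 32 without its first and second library and 62 without the first library of set 1_03, and the count for set 1_04 was 50 and 33 without its own libraries and 64 and 60 without those of set 1_03.

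S1pr1, Klf2, Tcf7 and Cxcr3 were higher in both sets than in that mean. S1pr1, at 493 and 398 CPM in set 1_05 and 389.7 and 377 CPM in set 1_04, had 137 and 81.8 CPM in set 1_02 and 114 and 90.9 CPM in set 1_03, log2 fold changes of 2.07 ± 0.31 for set 1_05 (adjusted p = 0.00201) and 1.85 ± 0.31 for set 1_04 (adjusted p = 0.00518, and up to 0.0706 without either library of set 1_04) against that mean. Klf2, with 53.0 and 52.6 CPM in set 1_02 and 82.9 and 90.5 CPM in set 1_03, had 1.93 ± 0.22 for set 1_05 and 2.11 ± 0.22 for set 1_04 (adjusted p of 0.000145 and 6.39e-05). Tcf7, a transcription factor of long-lived T cells, had 66.8 and 73.5 CPM in set 1_05, against 66.0 and 56.3 CPM in set 1_04, with 15.6 and 6.86 CPM in set 1_02 and 21.9 and 19.9 CPM in set 1_03. Its log2 fold changes were 2.20 ± 0.40 for set 1_05 and 2.01 ± 0.40 for set 1_04 (adjusted p of 0.00934 and 0.0218), and the call in set 1_05 was lost without its second library (adjusted p = 0.113), and that in set 1_04 without either of its libraries or either of set 1_03 (adjusted p up to 0.156). Cxcr3, the receptor for interferon-induced chemokines, had 303 and 289 CPM in set 1_05, against 268 and 258 CPM in set 1_04, with 70.7 and 53.7 CPM in set 1_02 and 86.4 and 67.2 CPM in set 1_03, and log2 fold changes of 2.10 ± 0.21 for set 1_05 and 1.93 ± 0.21 for set 1_04 (adjusted p of 4.32e-05 and 6.39e-05). Of the 26 recirculation genes 5 were higher and 1 lower in set 1_05, with a median of 0.98. In set 1_04, 6 were higher and 1 lower, with a median of 0.86. The medians over all genes were 0.04 in set 1_05 and 0.03 in set 1_04. Over all genes 0.58% were called higher and 0.311% lower in set 1_05, and 0.433% and 0.36% in set 1_04.

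Markers of other cells moved in the same comparisons. Over all genes 0.58% were called higher and 0.311% lower in set 1_05, and 0.433% and 0.36% in set 1_04. In set 1_05, 5 of 27 phagocyte and dendritic genes were higher than that mean and none lower, with a median log2 fold change of 1.05. They were Cd74 at 1.80 ± 0.26 (adjusted p = 0.00129), the class II chains H2-Eb1, H2-Ab1 and H2-Aa at 1.67, 1.37 and 1.37, and Ctss, a protease that trims the invariant chain, at 1.05. Among 32 keratinocyte genes Krt6b, Krt17 and the cornified envelope gene Sprr1b were higher in set 1_05 (4.03, 1.68 and 1.89). In set 1_04 none of the 27 phagocyte genes was called (median 0.25), and Sprr1b alone of the keratinocyte genes was higher (2.21). Of the fibroblast and endothelial list 1 gene was higher and 2 lower in set 1_05, and 1 was higher, Acta2, and 3 lower in set 1_04. In set 1_05 every one of these 8 calls except that of Cd74 was lost without its first library, and those of H2-Aa, Ctss, Krt6b, Krt17 and Sprr1b also without its second. Those of Ctss, Krt6b, Krt17 and Sprr1b were lost without the first library of set 1_03 as well, those of Ctss, Krt6b and Sprr1b without its second, and those of Ctss and Sprr1b without the second library of set 1_02. The call of Sprr1b in set 1_04 was lost without the second library of that set and without either of set 1_03. Set 1_02 held little of the class II and keratin transcripts: H2-Aa had 145 and 129 CPM in set 1_05 and 62.7 and 87.2 CPM in set 1_04, with 22.6 and 15.6 CPM in set 1_02 and 155 and 142 CPM in set 1_03. The part of these transcripts in the differences of S1pr1, Klf2, Tcf7, Cxcr3 and the effector genes was not tested.

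Part of the effector genes were lower in both sets than in that mean. Of 26 effector and cytotoxic granule genes 8 were lower and none higher in set 1_05, where 0.311% of all genes were called lower. There 7 lay above 0 and 19 below, with a median log2 fold change of -0.51. In set 1_04, 8 were lower and 1, Ccl5, higher, 10 lay above 0 and 16 below, and the median was -0.29. Over all genes 0.36% were called lower and 0.433% higher in set 1_04. Ccl1, Ccl3, Ccl4, Xcl1, Ifng, Gzmb, Gzmc and Gzmf were the 8 called lower in each set. Gzmb in set 1_04 lay close to the threshold (adjusted p = 0.04945 by edgeR). The call of Gzmf in set 1_05 was lost with day 2 libraries only and without the first library of set 1_05. Ccl1, a chemokine of activated T cells, had 4.38 and 8.71 CPM in set 1_05, against 4.61 and 2.56 CPM in set 1_04, with 79.6 and 67.6 CPM in set 1_02 and 131 and 136 CPM in set 1_03. Its log2 fold changes were -3.95 ± 0.37 for set 1_05 and -4.73 ± 0.39 for set 1_04 (adjusted p of 4.32e-05 and 5.10e-06). Xcl1, which attracts cross-presenting dendritic cells, had 110.5 and 47.4 CPM in set 1_05, against 65.0 and 82.9 CPM in set 1_04, with 374 and 444 CPM in set 1_02 and 481 and 447 CPM in set 1_03. Il13, a type 2 cytokine, had 7.70 and 5.50 CPM in set 1_05, against 1.74 and 5.12 CPM in set 1_04, with 58.5 and 66.0 CPM in set 1_02 and 97.6 and 109 CPM in set 1_03, and Il17a, a type 17 cytokine, had 4.54 and 4.58 CPM in set 1_05, against 5.12 and 3.62 CPM in set 1_04, with 39.2 and 50.8 CPM in set 1_02 and 41.8 and 25.7 CPM in set 1_03. Ifng had 113 and 171 CPM in set 1_05, against 187 and 198 CPM in set 1_04, with 825 and 933 CPM in set 1_02 and 353 and 381 CPM in set 1_03, with log2 fold changes of -2.00 ± 0.24 for set 1_05 and -1.56 ± 0.23 for set 1_04 (adjusted p of 0.000168 and 0.00156). The calls of Il17a were lost without either library of the set compared or the first library of set 1_03 (adjusted p up to 0.252 for set 1_05 and 0.29 for set 1_04). Between sets 1_05 and 1_04 themselves, none of Ccl1, Xcl1, Il13, Il17a and Ifng passed, and the log2 fold change of Ifng was -0.44 ± 0.25.

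**Figure D4:**
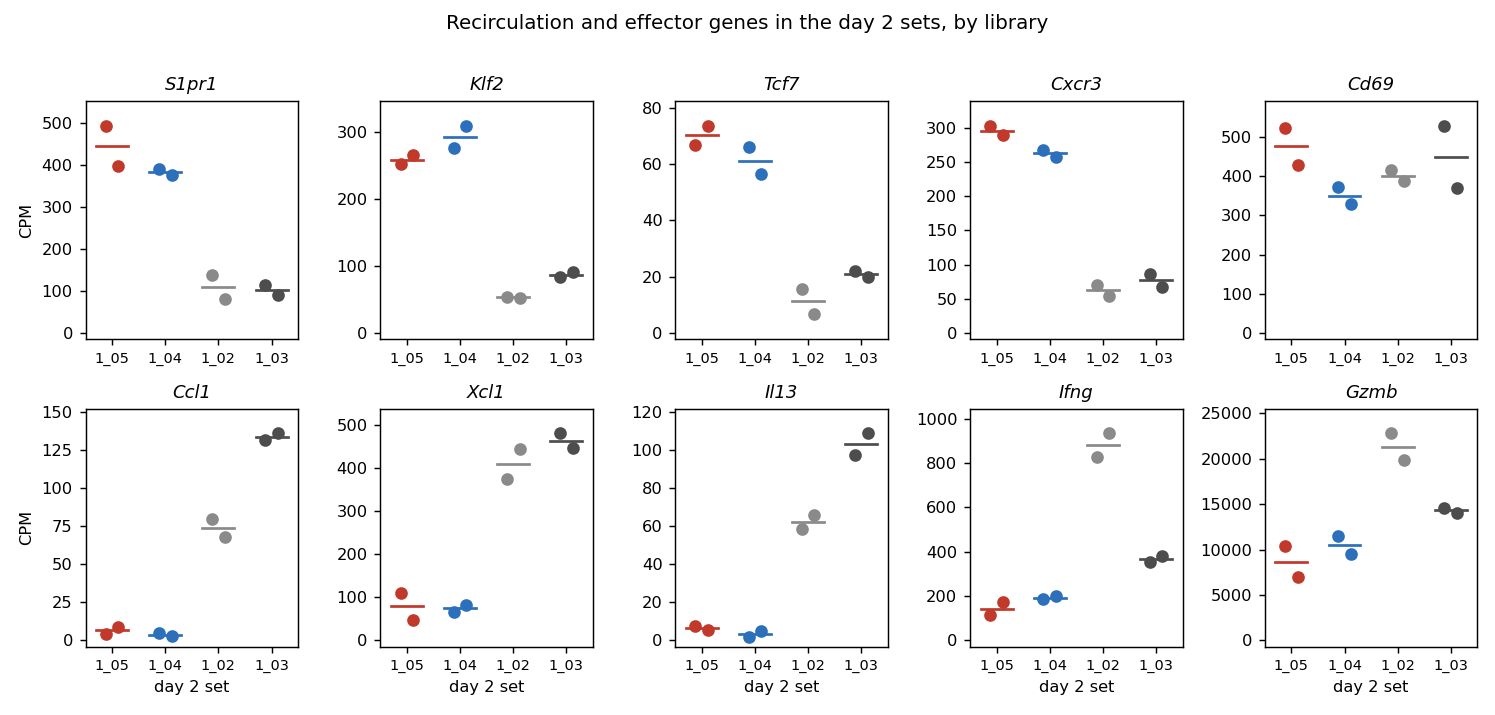
CPM (y axis, linear, from 0) of S1pr1, Klf2, Tcf7, the chemokine receptor gene Cxcr3 and Cd69 (upper row) and 5 effector genes (lower row) in every day 2 library, by set (x axis). Points are libraries and bars the mean of 2. Sets 1_05 and 1_04 lie side by side, above sets 1_02 and 1_03 for S1pr1, Klf2, Tcf7 and Cxcr3 and below them for all 5 effector genes, while Cd69 does not divide the sets.

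No granzyme gene passed between sets 1_05 and 1_04 in the main test. Gzmb, the main granzyme of cytotoxic T cells, had 10355 and 6944 CPM in set 1_05, against 11526 and 9475 CPM in set 1_04 (log2 fold change -0.28 ± 0.19, adjusted p = 1). Gzma had 159 and 147 CPM in set 1_05, against 253 and 273 CPM in set 1_04, with a log2 fold change of -0.78 ± 0.18 that did not pass (adjusted p = 0.249). Its libraries did not overlap, which the naming rule required, and it passed with DESeq2 (adjusted p = 0.000178). Gzmf had 2.84 and 3.36 CPM in set 1_05, against 0.717 and 0 CPM in set 1_04, with 19.6 and 13.4 CPM in set 1_02 and 15.5 and 13.8 CPM in set 1_03, and a log2 fold change of 2.69 ± 0.56 (adjusted p = 0.108). It passed without the low-count filter (adjusted p = 0.0012 by edgeR) and with DESeq2 (adjusted p = 0.0149). All 4 libraries of sets 1_05 and 1_04 had less Gzmf than any library of the other day 2 sets.

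Cell division genes mostly had log2 fold changes below 0, and none was called. Of 42 proliferation genes 4 were above 0 and 38 below, and their median log2 fold change was -0.37, against 0.02 over all genes. Mki67, the standard marker of dividing cells, had 30.7 and 28.9 CPM in set 1_05, against 39.3 and 48.8 CPM in set 1_04 (-0.56 ± 0.38), with no overlap. Cenpf, a kinetochore gene, had 5.92 and 1.37 CPM in set 1_05, against 13.2 and 17.5 CPM in set 1_04 (-2.03 ± 0.66, adjusted p = 0.806). Top2a had 51.5 and 44.6 CPM in set 1_05, against 71.4 and 36.9 CPM in set 1_04, with overlapping libraries. Against the mean of sets 1_02 and 1_03 the median of the list was -0.79 in set 1_05 and -0.28 in set 1_04, and Rrm2, Tuba1b and Tubb5 were lower in both. No gene of energy metabolism or translation was called: the medians were 0.06 over 23 glycolysis genes, 0.05 over 54 genes of oxidative phosphorylation and -0.01 over 66 cytosolic ribosomal protein genes.

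Further genes did not pass, with adjusted p from 0.0521 to 0.527 by edgeR. Among those with larger values in set 1_05, Entpd7, a nucleotide-cleaving enzyme of internal membranes, had 19.6 and 13.4 CPM in set 1_05, against 2.66 and 1.49 CPM in set 1_04 (log2 fold change 2.95 ± 0.55, adjusted p = 0.0521). Rasgef1b, an activator of Ras-family proteins, had 74.9 and 89.4 CPM in set 1_05, against 40.7 and 21.5 CPM in set 1_04 (adjusted p = 0.108), the tyrosine kinase gene Src had 42.3 and 133 CPM in set 1_05, against 26.7 and 20.3 CPM in set 1_04 (0.108), and Ly6g5b had 23.6 and 26.7 CPM in set 1_05, against 4.51 and 7.25 CPM in set 1_04 (0.143). The naming rule required that the sets did not overlap for these 4, and the second library of set 1_05 stood high for Src. Among those with smaller values in set 1_05, Cxcl1, which attracts neutrophils, had 2.43 and 5.35 CPM in set 1_05, against 43.9 and 28.6 CPM in set 1_04 (log2 fold change -3.23 ± 0.71, adjusted p = 0.160), and Chsy1, an enzyme of chondroitin sulfate synthesis, had 59.0 and 74.4 CPM in set 1_05, against 121 and 187 CPM in set 1_04 (0.153). The metallothioneins Mt1 and Mt2, which bind zinc and respond to glucocorticoids, had log2 fold changes of -0.73 ± 0.17 and -0.64 ± 0.16 (adjusted p of 0.193 and 0.273). Cebpd, a transcription factor gene that glucocorticoids induce, had 1.30 and 2.29 CPM in set 1_05, against 12.2 and 16.4 CPM in set 1_04 (0.273), Jun of the AP-1 factors had 185 and 222 CPM in set 1_05, against 293 and 509.9 CPM in set 1_04 (0.350), and Rgs16, a brake on chemokine receptor signalling, had 24.3 and 23.4 CPM in set 1_05, against 43.7 and 73.3 CPM in set 1_04 (0.527). Of the 27 genes named by the rule without passing, which include Tm4sf1, Sparcl1 and Gzma, 20 passed in at least 1 of the alternatives tried.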

How the data were processed

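Libraries of sorted skin CD8 T cells were made by CEL-seq2, per the labels' protocols. The deposited table holds counts, which the authors left raw for each gene. Tools named in the submitters' processing notes are HTSeq, BWA 0.7.15 and bcl2fastq 2.2, and the build is GRCm38. Molecular barcode collapse and strand use are not given in the sources used here, so counts may include amplification copies and intervals cover counting error only. Sets come from column headers, whose prefix 1 is the day with 4 subsets and whose ending 03 recurs at every day. No set was read from expression or column order, and headers carry no replicate letter. The 7 external control transcripts, with 0 to 3 reads per day 2 library, were left out, and 16877 of 18052 gene symbols were placed on GENCODE (GRCm38).

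The tests used edgeR 4.0.16 under R 4.3.3: filterByExpr by set, TMM, robust dispersions, and quasi-likelihood F tests in 1 fit of 16 libraries in 8 sets (8 residual degrees of freedom). This kept 12236 genes. Benjamini-Hochberg adjustment ran over all of them, with calls under 0.05. Each SE is the absolute log2 fold change divided by the square root of the F statistic. CPM uses TMM-scaled library sizes. The code was tested on simulated data. Alternatives were median-of-ratios size factors, no filter, DESeq2 1.42.0, day 2 libraries only, the 4 libraries only, mitochondrial transcripts or other cells' markers left out, and leaving out each library.

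The sets, gene lists and rules were chosen with earlier results of these data known. Named genes are Itgae, Cd69, up to 12 called genes per direction by log2 fold change at 10 CPM or more in the higher set with no overlap, filled by smallest p where fewer were called, and up to 4 members by p of each list with a called member. Further members of lists were added to describe them, and those outside both are marked. Results of a few genes are not reported here.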

Additional observations from a re-analysis of the deposited data

How the results depend on the processing

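Between sets 1_05 and 1_04, 10 genes were called, 8 higher and 2 lower. The count was 79 (48 higher, 31 lower) without the low-count filter, 45 (24 and 21) with DESeq2, and 23 (11 and 12) with the 4 compared libraries alone, and these held 10, 10 and 7 of the 10 genes. It was 10 with median-of-ratios size factors and without mitochondrial transcripts, 9 with day 2 libraries only and 9 without markers of other cells, and 7 to 17 when a library was left out. Itgae, Dcn, Ifitm1, Ifitm2, Ccl5 and Fabp4 passed in every alternative that could be run for them. Dcn is itself a marker of other cells and could not be tested with those markers left out. With day 2 libraries only, Lyz1, Bnip3 and Fgl2 did not pass, and with the 4 libraries only, Lyz1, Akr1c18 and Bnip3 did not. Against the mean of sets 1_02 and 1_03, the 109 genes of set 1_05 became 294 without the filter and 329 with DESeq2, and 32 to 149 when a library was left out. The 97 genes of set 1_04 became 293, 265, and 33 to 127. None of the 37 genes followed between sets 1_05 and 1_04, nor of the 32 and 31 against that mean, changed direction. The directions of other genes were not compared across the alternatives. Some of those genes passed between sets 1_05 and 1_04 in an alternative. Krt6b did so without the low-count filter and with the 4 libraries only, and Krt17 in both of these and with DESeq2. The cause of the moves was not tested. Leaving out libraries of sets 1_02 and 1_03 was chosen after seeing the data. Where 1 library of a set was left, it was assumed to vary like the other sets. With 2 libraries a set and 4426747 counts in the shallowest, differences in genes at a few CPM were often not detectable. No paired analysis was possible because the column headers carry no replicate letter.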

Other observations

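A few genes with large fitted differences rested on 1 library. Inca1 had 0 and 38.3 CPM in set 1_05, against 0 and 0 CPM in set 1_04, Chrnb1 had 0.0811 and 28.3 CPM in set 1_05, against 0 and 0 CPM in set 1_04, and Tbc1d9, a regulator of membrane traffic, had 0.162 and 37.3 CPM in set 1_05, against 0 and 0.213 CPM in set 1_04. All 3 were high in the second library of set 1_05 alone, and none passed (adjusted p of 1, 0.839 and 1 by edgeR). The transcription factor gene Sox12 stood high in the first library of set 1_04, with 1.70 and 2.60 CPM in set 1_05, against 74.2 and 4.90 CPM in set 1_04. It was called against the mean of sets 1_02 and 1_03 in set 1_04 (adjusted p = 0.00334, and 0.292 without that library) and not between sets 1_05 and 1_04 (adjusted p = 0.806). These genes were chosen after their values were seen.

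Several genes called against the mean of sets 1_02 and 1_03 belong to neither the exit nor the effector group. Cd7, a surface receptor of T and natural killer cells, had 245 and 185 CPM in set 1_05, against 86.7 and 87.2 CPM in set 1_04, with 25.1 and 28.3 CPM in set 1_02 and 109 and 66.6 CPM in set 1_03. Its log2 fold changes were 2.15 ± 0.25 for set 1_05 (adjusted p = 0.000168) and 0.84 ± 0.26 for set 1_04 (adjusted p = 0.204). Cd101, a surface protein found on resident T cells and myeloid cells, had 41.2 and 37.4 CPM in set 1_05, against 12.3 and 12.8 CPM in set 1_04, with 2.14 and 6.52 CPM in set 1_02 and 16.5 and 29.7 CPM in set 1_03, and passed in set 1_05 with 1.94 ± 0.41 (adjusted p = 0.0276, and up to 0.14 without either of its libraries, the first of set 1_02 or the first of set 1_03), against 0.29 ± 0.43 in set 1_04 (adjusted p = 0.931). The difference of set 1_05 from set 1_04 in Cd101 was 1.65 ± 0.50 (adjusted p = 0.659). Ccr8, a chemokine receptor of skin T cells, had 8.43 and 6.42 CPM in set 1_05, against 3.38 and 2.77 CPM in set 1_04, with 15.3 and 17.5 CPM in set 1_02 and 22.8 and 25.2 CPM in set 1_03, and was lower, with log2 fold changes of -1.41 ± 0.29 for set 1_05 (adjusted p = 0.0237, and up to 0.403 without either of its libraries or either of set 1_03) and -2.67 ± 0.33 for set 1_04 (adjusted p = 0.000245). Sprr2h, an epidermal barrier gene, had 68.0 and 61.6 CPM in set 1_05, against 14.4 and 12.6 CPM in set 1_04, with 0 and 0 CPM in set 1_02 and 17.1 and 22.6 CPM in set 1_03, and was higher than the mean in set 1_05 (adjusted p = 0.000689) and in set 1_04 (adjusted p = 0.0384, and up to 0.111 without any 1 of the libraries of sets 1_04, 1_02 and 1_03). Defb6, an antimicrobial peptide gene of epithelia, had 34.2 and 21.8 CPM in set 1_05, against 121 and 63.7 CPM in set 1_04, with 9.79 and 12.7 CPM in set 1_02 and 14.3 and 29.8 CPM in set 1_03. It was higher in set 1_04 than that mean (adjusted p = 0.00412, and 0.101 without the first library of set 1_04), and the difference of set 1_05 from set 1_04 did not pass (adjusted p = 0.580). These genes, too, were chosen after their values were seen.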
